A study of Mus musculus with 6 samples.

Results

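The immediate early genes are those that a cell switches on within minutes of a stimulus, before any new protein is made. Whether a trace of that response was left 4 h after synchronization was examined for a list of 10 genes. They were FOS, FOSB, FOSL2, JUN, JUNB, JUND, EGR1, NR4A1, NR4A2 and CREM. All are called early genes below, although JUND is expressed rather evenly in resting cells. The cells were mGLUTag, an immortalized male mouse line of the GLP-1-secreting intestinal L-cell. All 6 samples came from this single line and shared 1 treatment: the cells were held in low serum, exposed to forskolin and returned to growing media. RNA was collected at 4 h (n = 3) and at 16 h (n = 3), and each sample was read on 1 array. All array probes whose symbol was that of a listed gene were taken, which gave 17 of 45281 probes, for 9 of the 10 genes. JUND had none under its present symbol, and its probe under the older name JUND1 is given apart. No untreated sample and none from before or just after forskolin was analysed here, so a level at 4 h can be set only against that at 16 h.

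Forskolin activates adenylyl cyclase, and the cAMP it raises acts through protein kinase A on the transcription factor CREB, which binds the cAMP response element (CRE) in the promoters of many early genes. Serum acts on largely the same genes through MAP kinases and the serum response factor SRF. FOS and JUN family proteins pair to form the AP-1 factor, EGR1 is a zinc finger factor, and NR4A1 and NR4A2 are orphan nuclear receptors. CREM is a relative of CREB, and its short product ICER, made from an internal cAMP-inducible promoter, represses the same elements. Early transcripts are short-lived, so their levels ordinarily fall soon after a stimulus ends.

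The promoters of these genes are shown first, since the CRE is where the forskolin signal is known to act. RefSeq windows (GRCm38.p6) from 250 bases before to 50 bases after the annotated start were found for 8 of the 10 genes. They were searched on both strands for the CRE core TGACG, which reads CGTCA where it lies on the opposite strand. They were also searched for the full CRE, TGACGTCA, which contains that core, for the AP-1 site, TGANTCA, and for the CArG box of SRF. The core was present in 5 of the 8 windows, those of FOS, FOSB, JUNB, NR4A1 and NR4A2, and in 20.8% of the 32851 promoter windows of the same length. NR4A1 and NR4A2 each held it 4 times, and 0.231% of all windows held it 4 times or more. No window of the 8 held the full CRE (1.79% of all windows), the AP-1 site (7.81%) or the CArG box (1.63%). A match is a description of letters, and no match says nothing of sites outside the window. The windows of the 4 genes that were above noise on all arrays and held the core follow, 5′ to 3′ in the direction of the gene, with the core in capitals. They lie at chr12:85473640-85473939 on the plus strand (FOS), chr7:19309996-19310295 on the minus strand (FOSB), chr8:84978699-84978998 on the minus strand (JUNB) and chr2:57123954-57124253 on the minus strand (NR4A2).
FOS: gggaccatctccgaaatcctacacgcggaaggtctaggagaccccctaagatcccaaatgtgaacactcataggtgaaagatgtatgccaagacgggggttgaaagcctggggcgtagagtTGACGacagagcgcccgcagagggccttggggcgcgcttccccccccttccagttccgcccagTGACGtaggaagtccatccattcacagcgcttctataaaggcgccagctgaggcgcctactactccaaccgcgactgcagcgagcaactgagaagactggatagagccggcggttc
FOSB: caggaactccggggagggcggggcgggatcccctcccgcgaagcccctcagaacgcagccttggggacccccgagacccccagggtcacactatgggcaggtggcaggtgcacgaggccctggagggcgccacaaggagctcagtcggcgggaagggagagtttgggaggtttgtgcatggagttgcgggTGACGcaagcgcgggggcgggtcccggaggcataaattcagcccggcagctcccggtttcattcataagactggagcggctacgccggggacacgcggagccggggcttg
JUNB: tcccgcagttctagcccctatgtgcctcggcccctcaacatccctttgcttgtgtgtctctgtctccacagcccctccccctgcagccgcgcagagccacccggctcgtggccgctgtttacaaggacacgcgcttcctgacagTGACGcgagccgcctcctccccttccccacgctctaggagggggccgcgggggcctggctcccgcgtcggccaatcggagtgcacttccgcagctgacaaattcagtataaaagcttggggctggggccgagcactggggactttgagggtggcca
NR4A2: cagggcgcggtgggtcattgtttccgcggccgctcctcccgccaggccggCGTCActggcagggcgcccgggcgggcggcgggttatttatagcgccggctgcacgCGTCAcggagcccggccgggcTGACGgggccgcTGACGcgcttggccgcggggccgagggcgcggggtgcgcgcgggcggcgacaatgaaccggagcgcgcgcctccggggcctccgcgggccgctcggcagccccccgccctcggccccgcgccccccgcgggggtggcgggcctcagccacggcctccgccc

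In FOS the capitals begin 129 and 66 bases before the start, in FOSB 60 bases and in JUNB 106 bases before it. In NR4A2 they begin 200, 144, 123 and 111 bases before it. FOSL2, JUN and JUND had windows without the core.

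The deposited values are background-subtracted intensities that were not normalized between arrays. The negative values of an array show the size of its noise, and 99% of them lay closer to 0 than the noise limit used for that array, which was between 9.2 and 14 units. A gene counts as detected below if its probe exceeded this limit on 3 or more arrays. The 4 h arrays were brighter throughout, with a mean intensity of 322 ± 31.3 (SD, n = 3) against 236 ± 17.0 (SD, n = 3) at 16 h. For the 14941 probes that exceeded it on every array, the deposited intensities had a median log2 ratio, 4 h over 16 h, of 0.55, and 98.2% of them were higher at 4 h. Changes are therefore given after quantile normalization, as log2 values at 4 h minus 16 h, and each is relative to the other transcripts. The 18S ribosomal RNA probes were high on 4 h replicates 1 and 3 and 16 h replicate 1 and low on the other arrays, so values within these sides are given beside the genes below. On the high side 16 h replicate 1 stands alone for 16 h, and on the low side 4 h replicate 2 stands alone for 4 h. These values therefore have no spread on that side of the comparison. The 18S level also differed within the high side, from 8.57 to 10.8 in mean log2 intensity. Of 12 L-cell markers 10 were detected, with proglucagon (Gcg) on all 6, Pcsk1 on 1 and Pyy on none, while 0 of 4 blood markers and 0 of 2 endothelial markers were detected. Of 5 stromal markers 1 was, Col1a1, and of 5 absorptive and goblet cell markers 2 were, Tff3 and Vil1.

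None of the early genes passed the test. With p-values of limma adjusted over all probes (Benjamini-Hochberg), 0 of the 9 genes with a probe were called higher and 0 lower at 4 h (threshold 0.05), where 0.00442% of all probes were called higher and 0.00442% lower. Before adjustment 1 gene had a p under 0.05, NR4A2, of the 7 detected, against 10.3% of all detected probes. That count was 0 when only probes above the noise limit were fitted. With no between-array normalization it was 4, and these were FOS, FOSL2, JUNB and EGR1, all higher at 4 h, without NR4A2. The log2 changes of these 7 genes lay between -0.23 and 0.16, with 3 above and 4 below 0 and a median of -0.0092, against 0.0014 for probes on all 6 arrays. The groups did not overlap for 0 genes in the higher direction, where 6.1% of detected probes did so, and for 1 gene in the lower direction, where 5.33% did so. Labels do not say that the samples came from separate cultures, so p-values measure the spread between these samples only, and fewer expressing cells cannot be told from less RNA per cell.

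FOS, the partner of JUN in AP-1 and the best known early gene, was measured by probe ILMN_2750515. Its deposited intensities were 183, 138 and 155 at 4 h and 95.8, 132 and 96.8 at 16 h. Every 4 h array lay above every 16 h array, but the log2 ratio of the means, 0.55, stood at the 50.6th percentile of the probes on all 6 arrays, and thus in the middle of the shared rise. After normalization the log2 intensities were 7.63, 7.67 and 7.53 at 4 h and 7.44, 7.75 and 7.66 at 16 h, and the groups overlapped. The log2 change was -0.0092 (SE 0.092, adjusted p = 0.997 by limma), with a 95% interval of -0.22 to 0.20. In fold terms this interval runs from 0.860 to 1.15. Because the offset of 50 added in background correction narrows the changes of dim probes, the same fit was run with no background correction, where the interval was 0.761- to 1.30-fold. The change was 0.14 among the arrays with high 18S levels and -0.04 among the others.

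**Figure D1:**
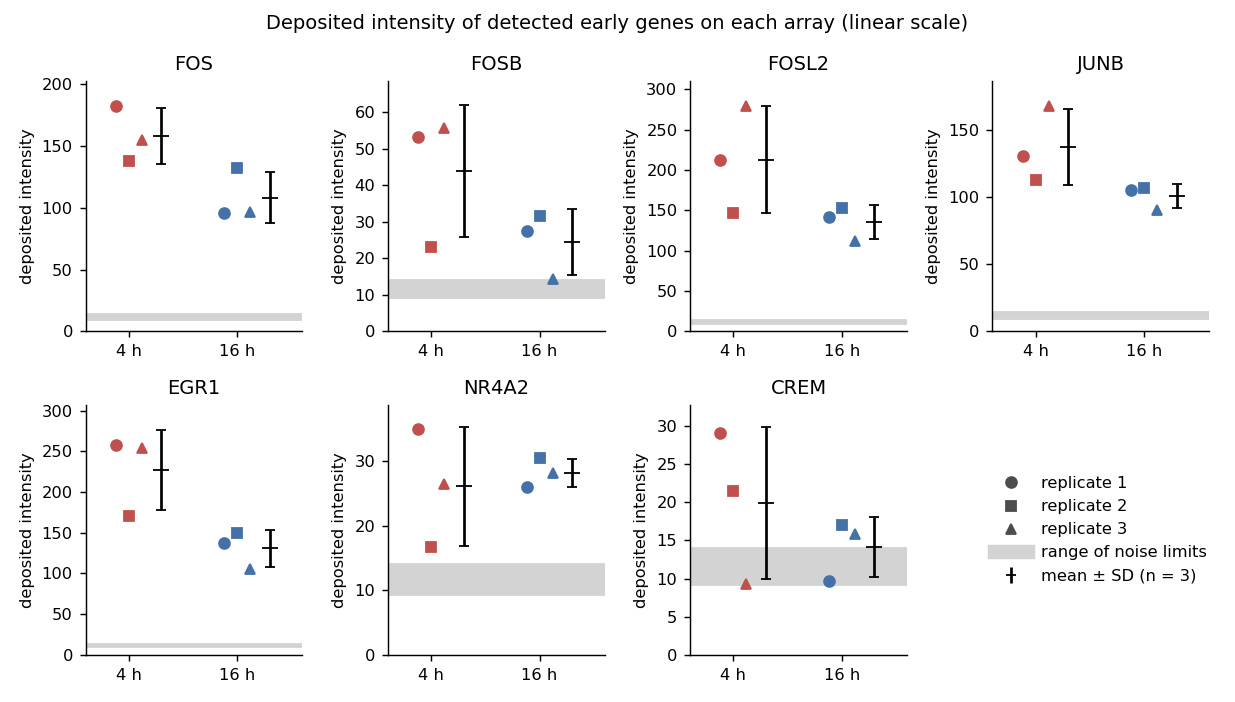
Deposited intensity (linear scale, not normalized between arrays) of the 7 early genes detected on 3 or more arrays, 1 panel per gene, with the 3 arrays at 4 h in red, the 3 at 16 h in blue, 1 symbol per replicate number, black bars for mean ± SD (n = 3) and a grey band for the range of noise limits. The arrays at 4 h are higher without overlap for FOS, JUNB and EGR1, CREM lies close to the noise limits, and NR4A2 is no brighter at 4 h.

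FOSB, a FOS relative with a long-lived truncated form, was dim. Its probe (ILMN_2778279) read 53.1, 23.0 and 55.5 at 4 h and 27.5, 31.6 and 14.4 at 16 h. Groups overlapped, with 4 h replicate 2 below a pair of 16 h arrays. The log2 ratio of the deposited means was 0.84, at the 88.2nd percentile of the probes on all 6 arrays. The normalized log2 change was 0.09 (SE 0.10, adjusted p = 0.967 by limma), with an interval of -0.14 to 0.31. Without background correction it was 0.26, and the interval of 0.632- to 2.26-fold shows how little this dim probe limits the change. Within the 18S sides it was 0.14 on the high arrays and -0.07 on the low ones.

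FOSL2, which encodes the AP-1 subunit FRA2, had 3 probes, of which 1 was bright. Probe ILMN_1252481 read 213, 147 and 279 at 4 h and 142, 153 and 112 at 16 h. High values were those of 4 h replicates 1 and 3, and replicate 2 fell among the 16 h arrays. The normalized log2 change was 0.03 (SE 0.11, adjusted p = 0.991 by limma), and leaving out 4 h replicate 3 turned it to -0.09. The change was 0.12 within the high 18S arrays and -0.13 within the low ones. The remaining probes of FOSL2 were above the noise limit on 1 array each and are given no change.

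JUNB, a JUN family subunit, was measured by ILMN_1220034 at 130, 113 and 168 at 4 h and 106, 107 and 90.6 at 16 h. All 4 h arrays were brighter, by a log2 ratio of 0.44, which ranked at the 31.4th percentile of the probes on all 6 arrays. Relative to other transcripts the log2 change was therefore below 0, at -0.10 (SE 0.085, adjusted p = 0.959 by limma), with an interval of -0.29 to 0.10, but at 0.20 with median scaling, where probes on all arrays had a median of 0.27. It was -0.08 and -0.10 within the high and low 18S arrays. The other JUNB probe read below 0 on all 6 arrays. JUN, the central AP-1 subunit, exceeded the noise limit only on 16 h replicate 1, at 11.5, and its 6 intensities lay between 3.9 and 12.1. No change is given for it. JUND, the member of the family that is expressed most evenly in resting cells, read 57.7, 52.2 and 39.6 at 4 h and 36.2, 46.3 and 30.4 at 16 h under its older name (ILMN_2682788). Its log2 change was -0.07 (SE 0.092, adjusted p = 0.974 by limma), and the groups overlapped. It was -0.08 within the high 18S arrays and 0.06 within the low ones.

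EGR1, a zinc finger factor induced through SRF and CREB, had the highest log2 change of the 7 detected genes in the fit with background correction. Without background correction EGR1 came below FOSB, at 0.21 against 0.26. Its deposited intensities (ILMN_2662926) were 257, 171 and 254 at 4 h and 137, 150 and 106 at 16 h, without overlap. The log2 ratio of 0.80 ranked at the 85.0th percentile of the probes on all 6 arrays. After normalization the 4 h values were 8.0, 7.87 and 8.03 and the 16 h values 7.80, 7.88 and 7.76, so that 4 h replicate 2 fell just under 16 h replicate 2 and the groups overlapped. The log2 change was 0.16 (SE 0.073, adjusted p = 0.919 by limma), at the 86.7th percentile of the probes on all 6 arrays, and its interval of -0.0088 to 0.32 held 0. The interval lay above 0 with no background correction (0.0011 to 0.43), with probes of a gene averaged (0.0052 to 0.31), without 4 h replicate 2 (0.02 to 0.39) and without 16 h replicate 2 (0.00085 to 0.38). It also did so in the settings that keep the brightness of the 4 h arrays, median scaling (0.19 to 0.77) and no between-array normalization (0.25 to 0.94). Over all 18 alternatives the adjusted p of EGR1 lay between 0.0592 and 0.999 by limma. On intensities divided by the brightness of each array the means were 190 ± 20.3 (SD, n = 3) and 159 ± 10.6 (SD, n = 3), a ratio of 1.19. EGR1 was above 0 in each setting tried, with log2 changes of 0.12 to 0.60, the highest with no between-array normalization, where the median of probes on all 6 arrays was itself 0.39. The change was 0.22 within the high 18S arrays and 0.05 within the low ones, and 0.14 with that split as a block. The part of the 18S difference in these values was not tested.

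**Figure D2:**
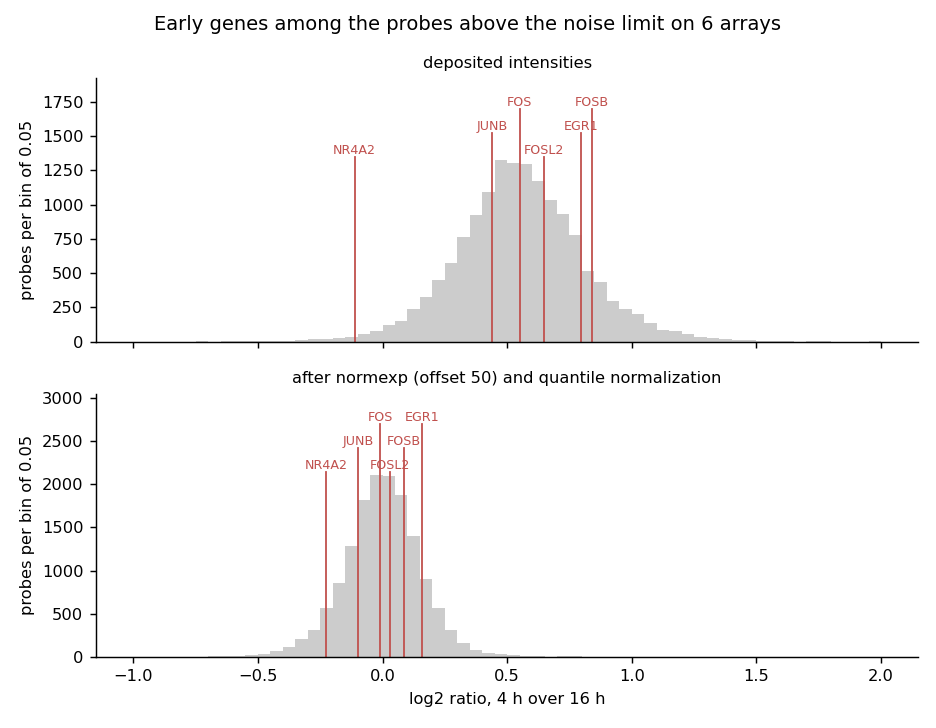
Log2 ratio of 4 h over 16 h for the probes that exceeded the limit on every array (grey bars, probes per bin of 0.05; values beyond the axis are in the end bins), from deposited intensities in the upper panel and after normalization in the lower, with red lines at the 6 early genes of that set. FOS lies in the middle of both distributions, EGR1 and FOSB lie above the middle, and NR4A2 lies at the 0.850th percentile in the upper panel and the 6.79th in the lower.

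NR4A2, also known as NURR1, had the lowest log2 change. Its probe (ILMN_1254547) read 35.0, 16.7 and 26.5 at 4 h and 26.0, 30.4 and 28.1 at 16 h. Their means, 26.1 ± 9.16 (SD, n = 3) and 28.2 ± 2.20 (SD, n = 3), were close, although nearly all probes were brighter at 4 h, and the log2 ratio of -0.11 ranked at the 0.850th percentile of the probes on all 6 arrays. After normalization the values were 6.44, 6.33 and 6.40 at 4 h, all below the 6.53, 6.62 and 6.69 at 16 h. The log2 change was -0.23 (SE 0.072, interval -0.39 to -0.06), at the 6.79th percentile of those probes, with an unadjusted limma p of 0.0126 that did not pass after adjustment (adjusted p = 0.741 by limma).

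The size of this NR4A2 difference depended on the treatment of background and on the scaling. It was -0.74 without background correction, or 0.601-fold with an interval of 0.433 to 0.833, and -0.36 with an offset of 16. Intensities divided by array brightness were 27.3, 16.4 and 21.3 at 4 h and 30.5, 34.3 and 39.5 at 16 h, a ratio of 0.622. These groups did not overlap, but 3 arrays against 3 cannot give an exact two-sided permutation p under 0.1, so no support is drawn from it. The difference was -0.11 within the high 18S arrays and -0.33 within the low ones. With median scaling it was -0.08, with an interval of -0.27 to 0.10 that held 0, and with no between-array normalization it was 0.01. In these settings the probes on all 6 arrays had medians of 0.27 and 0.39. NR4A1 (NUR77), its relative, was above the noise limit on no array, with intensities between -7.4 and 2.3, and no change is given for it.

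To describe the NR4A2 pattern further, the probes most like it were sought over the 6 arrays, by Pearson's r of normalized log2 intensity among the 14940 other probes on all arrays. The 3 highest were CIC (r = 0.988, log2 change -0.39), NUSAP1 (0.984, -0.13) and WDR51B (0.984, -0.30). The 3 lowest were 9830002L24RIK (r = -0.998, log2 change 0.15), TPST2 (-0.991, 0.21) and MTMR9 (-0.989, 0.21). The 6 arrays include both time points and both 18S sides, which all probes share, and r above 0.9 was reached by 0.609% of probes. The share at the negative end was not counted. The named probes are the extremes of 14940, so nothing is drawn from them. Among the early genes on all 6 arrays, r lay between -0.621 and 0.815 over 15 pairs, with 6 pairs above 0 and a median of -0.0403.

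CREM was covered by 6 probes, none above the noise limit on all 6 arrays. The probe with the highest mean log2 intensity (ILMN_1216758) read 29.0, 21.5 and 9.3 at 4 h and 9.7, 17.0 and 15.8 at 16 h, above the limit on 2 arrays of each time point. Its log2 change was -0.01 (SE 0.094, adjusted p = 0.996 by limma), but 0.06 and 0.03 within the high and low 18S arrays and 0.04 with that split as a block. Probe ILMN_1242622 read 28.1, 20.4 and 11.5 at 4 h and 11, 8.1 and 7.9 at 16 h, without overlap as deposited. Its normalized groups overlapped, with a log2 change of 0.12 (SE 0.077, adjusted p = 0.946 by limma), and it was above the limit on 2 arrays at 4 h and 1 at 16 h. Probes ILMN_2602899 and ILMN_2964986 had log2 changes of -0.06 and 0.08, both smaller in size than their errors. The last pair, ILMN_2747264 and ILMN_1244890, were above the limit on 1 array (4 h replicate 2, at 11.7) and on none. Which transcripts of CREM, ICER included, each probe reads was not determined here, and the interval of 0.343- to 2.45-fold without background correction for the first probe leaves wide limits.

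**Figure D3:**
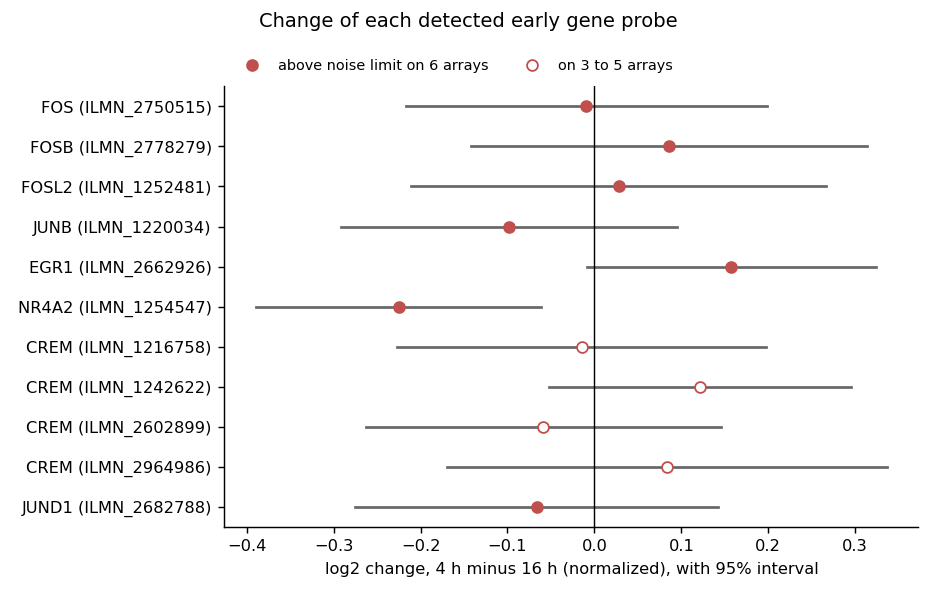
Normalized log2 change (4 h minus 16 h; points) with its 95% interval (lines, limma, not adjusted for the number of probes) for each detected early gene probe, JUND under its older name included. All intervals but that of NR4A2 include 0, and filled points are probes above the limit on all 6 arrays.

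As deposited, 3 of the 7 detected genes (FOS, JUNB and EGR1) were higher at 4 h without overlap, and 44.5% of all detected probes were so too. Across the 18 processing alternatives, none of the 7 genes passed the threshold under any. The number of fitted probes that passed differed widely among them. It was 0 with an offset of 16, a filter at the noise limit, the replicate block or any array left out, whereas 248 probes were called higher with median scaling and 2308 with no between-array normalization. EGR1 and FOSB had a log2 change above 0 under each of them, but that of FOSB was 0.02 without 4 h replicate 3 and 0.01 without 16 h replicate 3. FOS, CREM, FOSL2, JUNB and NR4A2 took either sign among them, FOS and CREM most often, and NR4A2 was above 0 only with no between-array normalization.

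**Figure D4:**
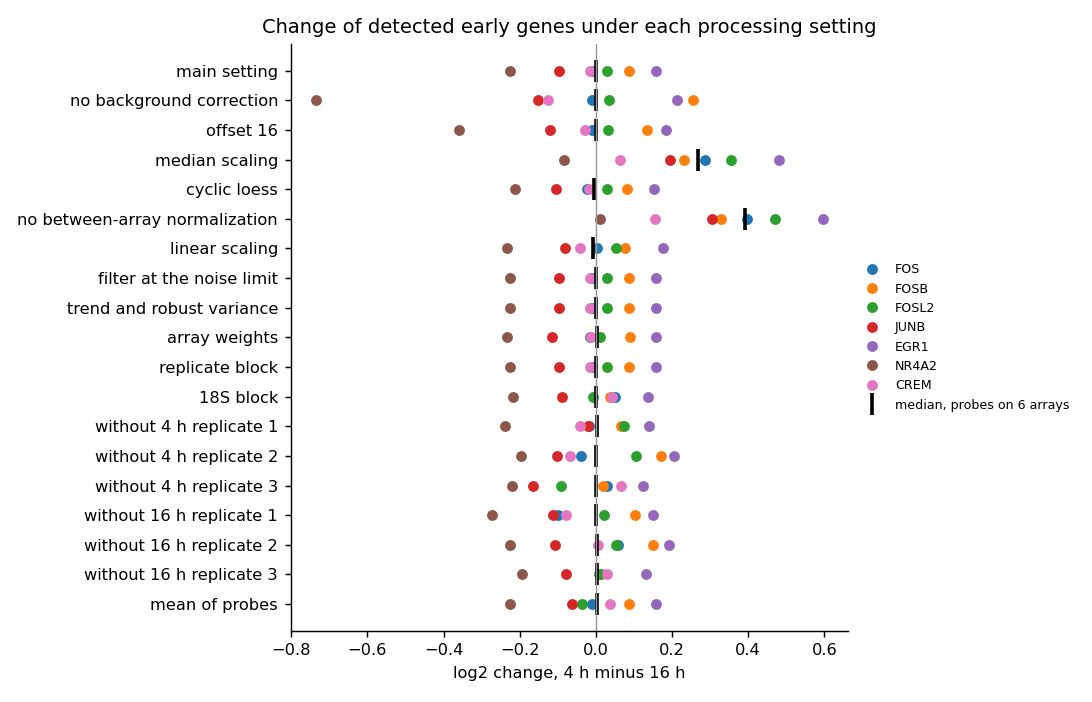
Log2 change (4 h minus 16 h) of the 7 detected early genes under the main setting and 18 alternatives, each coloured point 1 gene, with a black bar for the median of the probes on all 6 arrays. With median scaling and with no between-array normalization the genes move up together with that median, at 0.27 and 0.39, and NR4A2 stays lowest in each setting.

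Further genes of the early response were then considered, from lists of the pathway, with normalized changes that are again relative to the shared rise. Of 29 other early genes, 16 were detected and 0 passed the threshold of limma. At an unadjusted p under 0.05, 2 were higher and 1 lower, and the median log2 change was 0.02. Of all 17366 detected probes, 953 were higher and 838 lower by that measure, 10.3% together, which is the background for each list here. EGR4, an EGR1 relative, had a deposited intensity of 28.9 ± 4.14 at 4 h and 8.17 ± 4.64 at 16 h (mean ± SD, n = 3 each). It exceeded the limit on 3 arrays at 4 h but on 1 at 16 h, so it entered the count through the group where it was high, and its log2 change was 0.28 (adjusted p = 0.677 by limma). EGR2, also above the limit on 3 arrays at 4 h and 1 at 16 h, had a log2 change of 0.03, and EGR3 exceeded the limit on 2 arrays. JDP2, a repressor of AP-1, had a log2 change of 0.24 (adjusted p = 0.811 by limma), the stress-responsive kinase PLK3 one of -0.27 (adjusted p = 0.621 by limma) and CEBPB, a bZIP factor, one of 0.21 (adjusted p = 0.924 by limma). The probes used for MYC, IER2, IER5, BTG2, CYR61, CTGF and NR4A3 exceeded the noise limit on no array.

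The cAMP arm, which carries the forskolin signal, comprised 24 genes, of which 15 were detected and 0 passed the threshold. At an unadjusted p under 0.05, 2 were higher and 1 lower, against the same 10.3% of detected probes in either direction, and its median log2 change was -0.01. PDE10A, a phosphodiesterase that breaks down cyclic nucleotides, had deposited intensities of 66.0 at 4 h and 27.0 at 16 h on average and a log2 change of 0.29 (SE 0.075, adjusted p = 0.539 by limma). PDE4D, a cAMP phosphodiesterase, was at 0.18 (SE 0.081, adjusted p = 0.919 by limma), and PKIB, an inhibitor of protein kinase A, at 0.34 (SE 0.11, adjusted p = 0.706 by limma). For these 3 genes the normalized 4 h values all lay above the 16 h values, and for PER1 and CRTC3 all lay below, where 6.1% and 5.33% of detected probes did so. In the paper's own limma analysis of 4 h against 16 h, PKIB was among the genes called higher at 4 h, with a larger log2 change. The PKIB value given here is that of the brightest of its 5 probes, and the source of the difference was not tested. PER1, a clock gene with a CRE of its own, was at -0.30 (SE 0.080, adjusted p = 0.583 by limma). The part of clock phase in the PER1 value was not tested. CRTC3, a coactivator of CREB, was at -0.15 (adjusted p = 0.920 by limma) and CREB1 at -0.05. The probes used for SIK1, RGS2, PPARGC1A and PCK1, genes that CREB induces in other cells, exceeded the limit on no array.

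In the MAP kinase and SRF arm, 16 of 18 genes were detected and 0 passed. Unadjusted, 2 were higher and 1 lower, and the median was 0.02. The kinase MAPK3 (ERK1) had a log2 change of -0.39 (adjusted p = 0.496 by limma), the SRF cofactor ELK3 one of 0.26 (adjusted p = 0.742 by limma), MAPK14 (p38α) one of 0.20 (adjusted p = 0.878 by limma) and MAPK9 (JNK2) one of 0.13 (adjusted p = 0.919 by limma). SRF itself was at -0.06. Among 19 feedback inhibitors 11 were detected and 0 passed, with 1 higher and 1 lower unadjusted and a median of -0.02. DUSP4 and DUSP6, phosphatases that switch off MAP kinases, lay in opposite directions at 0.35 (adjusted p = 0.504 by limma) and -0.17 (adjusted p = 0.919 by limma). DUSP1, itself an early gene, was at -0.13 (adjusted p = 0.924 by limma), and SPRED1, an inhibitor of RAS signalling, at 0.22 (adjusted p = 0.924 by limma).

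Of 13 delayed early and growth genes 6 were detected and 0 passed, with 1 higher unadjusted and a median of -0.03. That gene was ODC1, the first enzyme of polyamine synthesis, at 4277 and 2361 in mean deposited intensity and a log2 change of 0.38 (SE 0.10, adjusted p = 0.561 by limma). HMGA1, a chromatin protein, was at -0.26, the cell cycle kinase CDK4 at -0.12 and lactate dehydrogenase LDHA at -0.06. Of 13 stress and handling genes 12 were detected and 0 passed, with 1 higher unadjusted and a median of 0.07. ATF4, which drives the amino acid stress response, had a log2 change of 0.42 (SE 0.084, adjusted p = 0.338 by limma). GADD45A, induced by DNA damage, was at -0.16 and the heat shock proteins HSPA8 and HSPB1 at 0.13 and 0.14, all unadjusted p above 0.05. HSPB1 exceeded the limit on 3 arrays at 4 h and 1 at 16 h, and so counted as detected through the group where it was high. Among 14 relatives of AP-1, 10 were detected and 0 passed, with 1 higher and 2 lower unadjusted and a median of -0.07. MAFG, a small MAF partner of bZIP factors, had a log2 change of -0.52 (SE 0.16, adjusted p = 0.725 by limma), ATF7, a CRE-binding factor, one of -0.18 (adjusted p = 0.919 by limma) and NFE2L2 (NRF2), which acts in oxidative stress, one of 0.13 (adjusted p = 0.936 by limma). NFE2L2, too, exceeded the limit on 3 arrays at 4 h but 1 at 16 h.

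**Figure D5:**
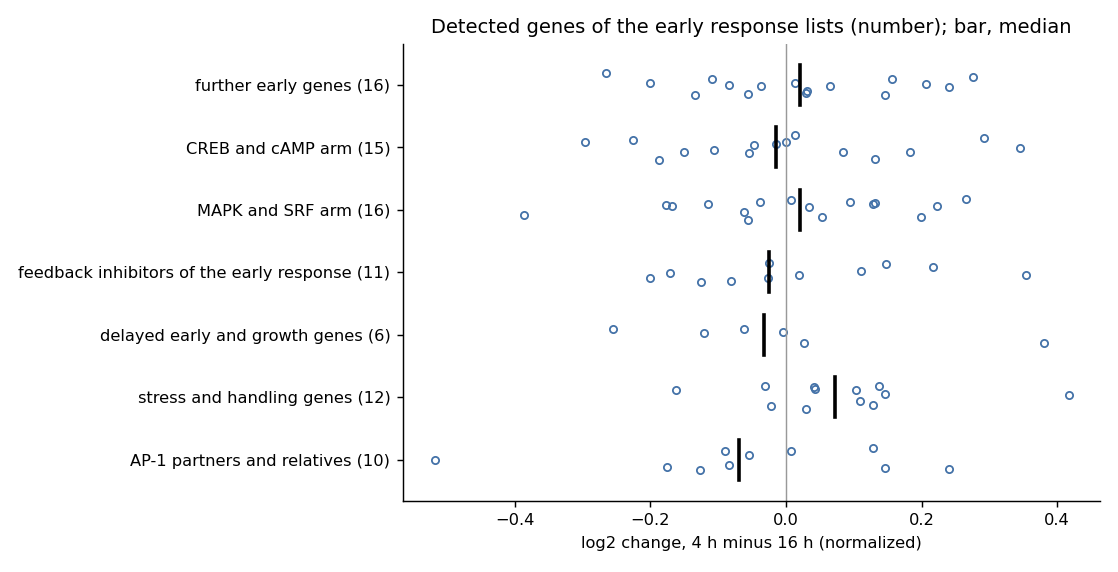
Normalized log2 change (4 h minus 16 h) of the detected genes in each list of the early response, each open circle 1 gene, black bars the list medians, with the number of detected genes in brackets; a gene in several lists is drawn in each. The medians lie between -0.07 and 0.07, and the genes of each list spread to both sides of 0.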

How the data were processed

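RNA from 6 mGLUTag samples (3 at 4 h, 3 at 16 h, grouped by their labels) was hybridized by the authors to a mouse WG-6 V2 Illumina BeadChip. The deposited table holds linear, background-subtracted intensities for 45281 probes that the authors did not normalize between arrays; scanner software, detection p-values and slides are not given in the sources used here. After background correction with normexp (offset 50) and quantile normalization, log2 values were fitted over all probes with limma 3.58.1 (lmFit, eBayes; R 4.3.3), with two-sided p-values adjusted by Benjamini-Hochberg over all probes. For each gene the probe of highest mean log2 intensity was used, and changes are given for detected genes. The number of arrays limits the precision.

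Named genes were all probes of the 10 listed genes, up to 4 detected genes with the smallest p in each list, and the 3 probes most and least like the detected early gene with the smallest p; other list genes were named after their values had been seen. The members and lists were chosen with earlier results of these data known. List genes were matched to array symbols through RefSeq names, with 27760 probes matched by symbol, 7994 by synonym and 9527 unmatched. Alternatives were an offset of 16, leaving out the background correction (with a floor of 1), cyclic loess, median scaling, no between-array normalization, linear scaling by the trimmed mean (10% from each end) of probes on all 6 arrays, a filter at the noise limit, trend and robust variance, array weights, replicate number as a block, the 18S split as a block, leaving out each array, and averaging probes. The fit was tested on simulated data.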

Additional observations from a re-analysis of the deposited data

How the results depend on the processing

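Under all 18 alternatives 0 early genes were called in limma. Of all fitted probes, too, 0 were called with an offset of 16, the noise limit filter, the replicate block and each array left out. By contrast, 248 were called with median scaling, 2308 with no between-array normalization and 19 higher and 10 lower with no background correction. The count of early genes at an unadjusted p under 0.05, 1 in the main setting, was 0 with the noise limit filter (NR4A2 interval -0.45 to 0.0037), 2 (NR4A2 lower, EGR1 higher) with no background correction, when probes were averaged and without replicate 2 of either time point, 2 (FOS and EGR1, both higher) with median scaling, and 4 (FOS, FOSL2, JUNB and EGR1, all higher) with no between-array normalization. Of 126 values of the 7 detected genes, 106 kept the direction of the main setting and 20 were reversed, none of them past the threshold. The 106 include values that could not reverse. The noise limit filter, trend and robust variance and the replicate block leave each log2 change as it was. Averaging probes does so for FOS, FOSB, EGR1 and NR4A2. With median scaling FOS was at 0.29, JUNB at 0.20 and CREM at 0.063, and with no between-array normalization FOS was at 0.40, JUNB at 0.30, NR4A2 at 0.011 and CREM at 0.16; both settings leave the brightness of the 4 h arrays in the values, with a median of 0.27 and 0.39 over probes on all arrays. The median of the early genes was then 0.23 and 0.33, and the count of genes without overlap was 3 higher and 0 lower in either. The other reversals were small: FOS at 0.0026 with linear scaling and 0.051 with the 18S block, FOSL2 at -0.0077 and CREM at 0.043 with that block, and FOSL2 at -0.035 and CREM at 0.036 when probes were averaged. Without 4 h replicate 3, FOS was at 0.030, FOSL2 at -0.093 and CREM at 0.065, and 3 genes were lower without overlap. Without 16 h replicate 2, FOS was at 0.058 and CREM at 0.0067, and without 16 h replicate 3 they were at 0.014 and 0.029. Over the 6 fits that left out 1 array, between 0 and 1 genes were higher and between 1 and 3 lower without overlap (1 was higher without 4 h replicate 2 and without 16 h replicate 2), and the median lay between -0.080 and 0.053, FOS between -0.10 and 0.058, FOSB between 0.010 and 0.17, JUNB between -0.17 and -0.020, EGR1 between 0.12 and 0.21, NR4A2 between -0.27 and -0.19, FOSL2 between -0.093 and 0.11 and CREM between -0.080 and 0.065; with fewer arrays groups overlap less often. For these changes the cause was not tested. Samples with the same replicate number did not deviate together throughout, with correlations of 0.25, 0.173 and -0.493 for replicates 1, 2 and 3. With the replicate block 0 genes were called. Each replicate number is present at both time points, so this block cannot move a log2 change. The median of -0.0092 was therefore the same by design.

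Dim signal limits what can be said of FOSB, NR4A2 and CREM, for which removing the background correction gave log2 changes of 0.26, -0.74 and -0.12, and nothing can be said of JUN and NR4A1.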
